A study of Xenopus tropicalis with 15 samples.

Results

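Control culture for 4.0 h was compared with fresh cells in total peripheral blood of wild-type *Xenopus tropicalis*. The comparison uses 6 of the 15 libraries of the study, 3 of cells harvested before culture and 3 of cells kept for 4.0 h in diluted IMDM with fetal calf serum and no erythropoietin (EPO). Blood of both groups was drawn from the heart into EDTA and washed with buffer that held fetal calf serum, and total RNA was read by 3' RNA-seq. The other 9 libraries are control culture for 1.5 h and culture for 1.5 h or 4.0 h with recombinant frog EPO, produced in E. coli, at 1 ng/mL. The labels number the biological replicates of each group 1 to 3 without naming the animals, so p-values measure only how far these samples spread, which may in part be technical. The control culture differs from the fresh cells in medium, serum, handling and time at once, and these cannot be told apart here.

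Frog red cells keep their nucleus in the circulation, and thrombocytes, the nucleated counterparts of platelets, and leukocytes travel with them. When blood cells are moved to medium with serum, immediate early genes such as those of the AP-1 factor (dimers of Fos and Jun proteins) can be transcribed without new protein synthesis, and feedback genes such as MAP kinase phosphatases and SOCS proteins limit the same signalling routes. Heat shock proteins, ubiquitin and autophagy receptors form the machinery that refolds or removes damaged proteins.

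The 6 libraries held between 1329340 and 3388564 counts, and the fresh ones were the shallower group (1329340, 2329659 and 1817170 against 2972137, 3388564 and 1958663). In a single one of them 3 counts correspond to between 0.914 and 2.20 CPM, where CPM stands for counts scaled to a common library total with TMM factors, and PCR reads without molecular identifiers make every counting interval given here one of counting error only. Globin genes took between 43.9% and 48.3% of the counts of these libraries, which fits the label of blood. Libraries of a group differed by more than sampling noise (5.18 to 8.64 chi-square units for each degree of freedom).

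Of 8939 genes tested, 53 changed (0.593%), of which 32 rose (0.358%) and 21 fell (0.235%), by edgeR's quasi-likelihood test with the replicate number as a block and a Benjamini-Hochberg adjusted p below 0.05. Among the 32 were the AP-1 genes fos, jun and junb, the transcription factor gene irf1, the chaperone gene hsp90ab1, the ubiquitin gene ubb and the autophagy receptor genes sqstm1 and nbr1. The 21 that fell held the integrin gene itgb3 and its partner fermt3, the actin regulators tmsb4x and dstn, the phosphatase gene dusp1 and the potassium channel gene kcnk2. At least a 2-fold rise was seen in 22 of them and at least a 2-fold fall in 12, and the other 19 changed by less. Over all genes tested the median log2 fold change was 0.02, and 51.3% lay higher after culture. The libraries of the groups did not overlap for 45 of the 53 genes, beside 1039 of all genes tested (11.6%). In 3 of 3 pairs of libraries with the same number, 51 of the 53 moved the same way. The fit that called these genes used the same libraries and matches the same pairs, so neither count is separate support for the calls. The pair count was not taken over all genes tested.

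These counts rest on the block. Without it 6 genes passed (0.0671%), namely adm, rnf227, ppp1r15b, dusp1, itgb3 and LOC100492529, 3 that rose and 3 that fell. Leaving out control 4.0 h replicate 1 lowered the counts to 12 and 9, and leaving out fresh replicate 2 or control 4.0 h replicate 2 lowered the number that fell to 13 or 10. All 53 genes kept their direction in every alternative in which they were tested. The alternatives reuse the libraries that made the calls, so this is not separate support for them. With each of the 6 libraries left out in turn 13 passed: fos, irf1, junb, nupr1, srsf5, higd1a, LOC100486918, mmp7, tmsb4x, ctgfl, dstn, itgb3 and LOC100492529.

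**Figure D1:**
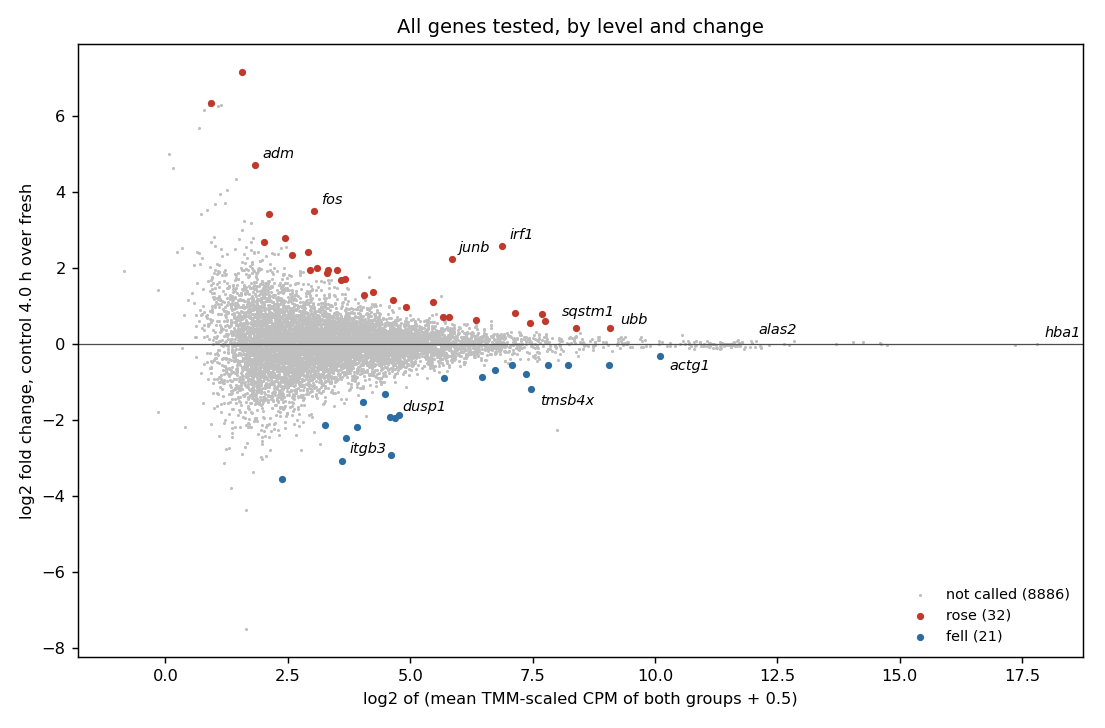
Log2 fold change of control culture at 4.0 h over fresh cells (vertical axis) against the log2 of the mean TMM-scaled CPM of both groups plus 0.5 (horizontal axis), 1 point for each of the 8939 genes tested. Red points are the 32 genes that rose, blue points the 21 that fell and grey points the others. The points narrow towards high levels, where hba1 and alas2 lie close to 0.

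The transcription factor genes fos, junb and jun of the immediate early class rose, as did crem, which is not in that list. fos, which encodes a subunit of AP-1, was read at 2.20, 0 and 1.74 CPM in fresh replicates 1, 2 and 3 and at 21.5, 7.62 and 13 CPM after 4.0 h of culture. The lowest cultured library was more than 3 times the highest fresh one, and the log2 fold change was 3.5 ± 0.538 (SE, adjusted p = 4.95e-05). junb, another AP-1 subunit gene, went from 28.6, 22.0 and 7.55 CPM to 151, 61.8 and 71.2 CPM, again without overlap (2.23 ± 0.228, adjusted p = 1.27e-06). jun lay at 5.87, 5.6 and 5.81 CPM in the fresh libraries, which were nearly equal, and at 17.1, 27.1 and 12 CPM after culture (1.71 ± 0.371, adjusted p = 0.00954). crem, whose product acts on cAMP-responsive genes, rose from 2.20, 4.31 and 4.07 CPM to 22.2, 11.3 and 13 CPM (1.94 ± 0.438, adjusted p = 0.0133). Of these 4 genes, fos and junb passed with each library left out. jun did not pass without fresh replicate 2 (adjusted p = 0.218) or control replicate 1 (0.0505), and crem did not pass without fresh replicate 1 (0.197), control replicate 1 (0.0505) or control replicate 2 (0.0511). Without the block none of the 4 passed (adjusted p 0.164 for fos, 0.276 for junb, 0.412 for jun and 0.357 for crem). With limma voom fos (adjusted p = 0.0693) and crem (0.107) did not pass, while junb and jun did.

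The immediate early list did not move one way. Of the 43 genes of that list named in the table, 26 were tested, 3 rose (fos, junb and jun), 1 fell (egr3), and the median log2 fold change was 0.33 beside 0.02 over all genes, with 19 of the 26 higher. egr3, a zinc finger gene of the early growth response family, lay at 75.6, 46.9 and 77.3 CPM in fresh cells and at 33.6, 32.9 and 39.1 CPM after culture. All cultured libraries were below all fresh ones (-0.90 ± 0.204, adjusted p = 0.0143), but the call was lost without fresh replicate 1 (0.139) or 3 (0.0926) and without control replicate 1 (0.118), 2 (0.0728) or 3 (0.0520). Its relative egr1 showed no call, with 19.1, 3.02 and 0 CPM in fresh cells and 3.36, 4.26 and 3.51 CPM after culture (adjusted p = 0.754), and its fresh value rested on replicate 1. For myc the levels were 5.45 ± 3.76 and 12.3 ± 3.00 CPM (SD, n = 3, adjusted p = 0.0744), for ier2 30.7 ± 24.4 and 67.4 ± 10.8 CPM (0.178), and for maff 40.9 ± 1.85 and 62.0 ± 5.78 CPM (0.0768).

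dusp1, which encodes a phosphatase that inactivates MAP kinases and is itself an immediate early gene in mammals, fell while fos and junb rose. It was read at 69.0, 21.1 and 31.9 CPM in fresh cells and at 8.74, 7.01 and 13.5 CPM after culture. The highest cultured library lay below the lowest fresh one, and the level after culture was 3.88-fold lower (log2 fold change -1.96 ± 0.345, adjusted p = 4.45e-04). The call held without the block (adjusted p = 0.0258) and was lost only without control replicate 1 (0.0523) among the fits that left out a library. The list of MAP kinase phosphatases and feedback genes had 17 members in the table, of which 4 were tested. The other three were dusp5, at 2.67 ± 1.93 and 6.71 ± 3.31 CPM (adjusted p = 0.422), dusp16 (0.851) and dusp10.2 (0.904).

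Genes of cytokine and interferon signalling rose singly. irf1, which encodes an interferon-regulated transcription factor, gained the most CPM of the 32 genes that rose, from 40.3, 34.9 and 22.7 CPM in fresh cells to 317, 150 and 136 CPM in culture. Every cultured library was at least 3 times the highest fresh one (log2 fold change 2.58 ± 0.280, adjusted p = 0.00154). socs1, a feedback inhibitor of Janus kinases, was read at 1.47, 0 and 2.32 CPM and then at 18.8, 4.57 and 2.51 CPM. The groups came closest at replicate 3, where the cultured library was barely above its fresh partner (2.80 ± 0.666, adjusted p = 0.0461). The socs1 call is fragile, since it was lost without each library except control replicate 3 (adjusted p 0.0521 to 0.323) and with DESeq2 size factors (0.0555). irf1 passed with each library left out and had an adjusted p of 0.198 without the block, beside 0.528 for socs1. With limma voom neither passed (adjusted p 0.152 for irf1 and 0.311 for socs1).

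il1r2, tnfrsf6b and il18bp, which were grouped by role after the calls and come from no list, were low in fresh cells. il1r2, the decoy receptor of interleukin 1, went from 4.40, 0.861 and 4.65 CPM to 18.1, 7.01 and 13.5 CPM (log2 fold change 1.99 ± 0.489, adjusted p = 0.0342). tnfrsf6b, which in humans encodes a decoy receptor for Fas ligand, went from 1.47, 1.29 and 0 CPM to 8.07, 8.83 and 1.50 CPM (2.68 ± 0.618, adjusted p = 0.0164), and its replicate 3 in culture was close to the fresh level. il18bp, whose product binds interleukin 18, had no count in the fresh libraries and 26 counts in culture, none of them in replicate 3. Against a floor of 3 counts over the fresh group it was at least 5.68-fold higher (adjusted p = 0.0424). Each of these calls depends on single libraries. il1r2 did not pass without fresh replicate 1 (0.162) or 2 (0.193) or control replicate 1 (0.0682) or 3 (0.194), tnfrsf6b not without replicate 1 or 2 of either group (0.0505 to 0.158), and il18bp not without any library other than control replicate 3 (0.0580 to 0.224). Without the block the adjusted p of the 3 genes lay between 0.289 and 0.498. None of the 3 passed with limma voom (0.206 to 0.279).

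Of the cytokine receptor signalling list, 23 of 29 genes were tested and 1 (socs1) rose, with a median of 0.09. Of the interferon response list, 16 of 22 were tested and 1 (irf1) rose, with 12 of the 16 higher and a median of 0.63. The other 4 were lower, down to a log2 fold change of -2.27, and none of them was called. The sums of this list overlapped, at 3770 to 4007 CPM in fresh cells and 3209 to 4179 CPM after culture. irf9, part of the complex that carries interferon signals to the nucleus, lay at 22.5 ± 6.14 and 36.8 ± 4.19 CPM (SD, n = 3, adjusted p = 0.156), and tap1, a peptide transporter gene of antigen presentation, at 5.81 ± 0.613 and 10.7 ± 0.769 CPM (0.388). socs3, related to socs1, lay at 8.77 ± 9.56 and 25.9 ± 7.59 CPM (adjusted p = 0.290). cish, a feedback gene of EPO receptor signalling, lay at 27.2 ± 20.5 and 25.6 ± 11.7 CPM (0.951), and epor itself at 150 ± 36.6 and 157 ± 15.9 CPM (0.941).

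adm, which encodes the vessel-dilating peptide adrenomedullin and is induced by low oxygen in mammals, was nearly unread in fresh cells. Its CPM were 0, 0 and 0.581 before and 9.41, 3.96 and 4.51 after culture, from 1 count against 50. The ratio of counts was 32.8 (95% interval 5.62 to 1319), and the call (adjusted p = 0.00281) held without the block (0.0259). It was lost without fresh replicate 2 (0.0547) or control replicate 1 (0.0505), and when every library was thinned to 1329340 counts (0.0679). The adm call was also lost with limma voom (0.0693) and with a 2-fold minimum change (0.0722). In the 6 libraries alone and with a mean of at least 10 CPM adm was not tested. Of the hypoxia response list 10 of 23 genes were tested and 1 rose, while all 10 lay higher (median 0.58). The other nine ranged from bnip3l, at 33.8 ± 6.55 and 35.1 ± 10.1 CPM, to egln1, an oxygen-sensing hydroxylase gene, at 1.06 ± 0.292 and 4.38 ± 4.39 CPM (adjusted p = 0.390).

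higd1a, a gene of a small mitochondrial inner membrane protein, rose in each pair of libraries with the same number although the groups overlapped. Its levels were 152, 142 and 216 CPM in fresh cells and 298, 207 and 283 CPM after culture (log2 fold change 0.61 ± 0.115, adjusted p = 0.00154). Replicate 2 was the lowest in both groups, so that cultured replicate 2 lay below fresh replicate 3, and the adjusted p without the block was 0.261. Glycolysis genes did not rise with it, since none of 16 tested of 20 changed and 6 were higher (median -0.11).

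Chaperone genes rose in part. hsp70, a gene of the stress-inducible 70 kDa chaperone class, lay at 2.93, 6.46 and 2.32 CPM in fresh cells and at 6.05, 21.9 and 16 CPM after culture (log2 fold change 1.86 ± 0.437, adjusted p = 0.0211). Cultured replicate 1 overlapped the fresh range. dnaja4.2, a gene of the Hsp40 co-chaperones, rose from 13.2, 12.1 and 6.39 CPM to 28.6, 24.1 and 26.6 CPM, without overlap (1.36 ± 0.299, adjusted p = 0.0105). hsp90ab1, which encodes a constitutive Hsp90, went from 73.4, 68.5 and 50.0 CPM to 107, 110 and 78.7 CPM (0.63 ± 0.142, adjusted p = 0.0132). Of the list of heat shock proteins and co-chaperones 35 of 48 genes were tested, these 3 rose, and 19 were higher (median 0.06). The most abundant, hspa8, lay at 319 ± 78.2 and 384 ± 71.3 CPM (SD, n = 3, adjusted p = 0.177). hspa1a, hspa1b and hspa1l have sequence close to hsp70, and dnaja4.1 to dnaja4.2, so reads may be split among them, which was not tested.

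Single libraries decide the chaperone calls. hsp70 passed only without control replicate 1 (without the others 0.0562 to 0.146), dnaja4.2 did not pass without fresh replicate 2 (0.0614) or 3 (0.0585) or control replicate 1 (0.0548) or 3 (0.0886), and hsp90ab1 did not pass without control replicate 2 (0.127). Without the block the adjusted p of the 3 lay between 0.198 and 0.339. hsp70 (0.268) and dnaja4.2 (0.0806) did not pass with limma voom, while hsp90ab1 did.

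nupr1 and ppp1r15b rose as single genes of other stress routes. nupr1, a small nuclear protein gene switched on by many stresses, lay at 57.2, 121 and 131 CPM in fresh cells and at 141, 207 and 189 CPM after culture, and every library rose over its fresh partner (log2 fold change 0.82 ± 0.132, adjusted p = 9.15e-05). ppp1r15b, whose product directs a phosphatase to the translation factor eIF2 alpha, rose from 14.7, 18.1 and 12.2 CPM to 28.9, 39.3 and 33.6 CPM (1.17 ± 0.239, adjusted p = 0.00458). This rise passed without the block too (adjusted p = 0.0464), whereas nupr1 did not (0.374). nupr1 passed with each library left out, and ppp1r15b did not pass without control replicate 2 (0.0569). nupr1 was the only member called of 33 tested (40 in the table) in the list of ATF4 and amino acid response genes (median 0.09), and none of 19 tested (23 in the table) changed in the list of endoplasmic reticulum stress (median 0.06).

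Genes of protein removal rose by 1.33-fold for sqstm1, 1.34-fold for ubb and 1.63-fold for nbr1. ubb, a polyubiquitin gene, had 412, 402 and 574 CPM in fresh cells and 671, 523 and 658 CPM after culture (log2 fold change 0.42 ± 0.081, adjusted p = 0.00154). sqstm1, which encodes the autophagy receptor p62, had 316, 290 and 243 CPM and then 499, 329 and 325 CPM (0.41 ± 0.091, adjusted p = 0.0120). Its lowest cultured library lay just above its highest fresh one, while the ubb groups overlapped. nbr1, another autophagy receptor gene, went from 24.2, 44.4 and 55.8 CPM to 57.8, 60.6 and 86.2 CPM (0.71 ± 0.175, adjusted p = 0.0355). Other polyubiquitin genes share sequence with ubb, so its value is uncertain.

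In the autophagy list 28 of 33 genes were tested, 2 rose and 23 were higher (median 0.23). ulk1, the kinase gene that starts autophagy, lay at 42.1 ± 11.5 and 66.2 ± 19.7 CPM (SD, n = 3, adjusted p = 0.0684), and the ATG8 family gene gabarap at 360 ± 31.7 and 377 ± 36.2 CPM (0.867). In the proteasome and ubiquitin list 1 of 44 tested (48 in the table) rose, and 30 were higher (median 0.13). ubb lost its call without control replicate 1 (0.0905), sqstm1 without fresh replicate 1 (0.180) or control replicate 1 (0.111), and nbr1 without each library except fresh replicate 3 (0.0511 to 0.242). Without the block the adjusted p was 0.412 for ubb, 0.624 for sqstm1 and 0.327 for nbr1.

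Further rises were in genes of varied function. mcl1, a survival gene of the BCL2 family, rose from 152, 127 and 145 CPM to 228, 174 and 219 CPM (log2 fold change 0.55 ± 0.119, adjusted p = 0.00954) and was the one call of 17 tested (26 in the table) in the apoptosis list (median 0.09). odc1, the first enzyme of polyamine synthesis, went from 5.87, 2.58 and 4.65 CPM to 29.2, 10.4 and 12 CPM (1.94 ± 0.366, adjusted p = 0.00149). srsf5, a splicing factor gene of the SR family, went from 99.0, 174 and 186 CPM to 241, 263 and 278 CPM (0.78 ± 0.119, adjusted p = 4.95e-05). In all 3 genes the lowest cultured library was above the highest fresh one, most widely in odc1. Of the splicing list 34 of 35 were tested, and srsf5 was the call (median 0.05), while of the polyamine list 8 of 11 were tested, and odc1 was the call (median 0.17). srsf5 passed with each library left out, mcl1 not without fresh replicate 3 (0.0605) or control replicate 1 (0.138), and odc1 not without control replicate 1 (0.0523). Without the block the adjusted p lay between 0.164 and 0.311. odc1 also did not pass with limma voom (0.0693).

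The remaining named rises had means between 1.82 and 38.3 CPM in fresh cells. The means went from 1.92 ± 1.70 to 12.1 ± 5.87 CPM for rnf227, a RING finger gene (SD, n = 3, log2 fold change 2.41 ± 0.468, adjusted p = 0.00194, and 0.0258 without the block). For nup155, a nuclear pore gene, they went from 3.00 ± 0.672 to 11.4 ± 2.34 CPM (adjusted p = 0.0467), and for xpc, which recognises DNA damage, from 5.88 ± 4.02 to 17 ± 3.45 CPM (0.0328). lima1, an actin-binding LIM protein gene, went from 9.39 ± 2.00 to 23.1 ± 4.26 CPM (0.0131), and dym, a Golgi protein gene, from 20.1 ± 7.18 to 39.5 ± 2.20 CPM (0.0355). crata, the carnitine acetyltransferase gene, rose from 1.82 ± 2.23 to 9.18 ± 2.43 CPM (0.0493), and gpcpd1, a glycerophosphocholine-cleaving enzyme gene, from 38.3 ± 10.1 to 61.9 ± 4.81 CPM (0.0211). For none of these 7 genes did fresh and cultured libraries overlap. For rnf227, nup155, xpc, lima1 and dym the rule for naming genes required this.

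Each of these 7 calls was lost without at least 1 library. rnf227 lost it without control replicate 1 (0.0699), nup155 without any one of the 6 (0.0673 to 0.186), xpc without fresh replicate 2 or control replicate 1 or 2 (0.121 to 0.289), and lima1 without fresh replicate 1 or 2 or control replicate 1 (0.0575 to 0.119). dym and gpcpd1 lost it without fresh replicate 1 or 2 or control replicate 1 or 2 (0.0601 to 0.221 and 0.0755 to 0.130), and crata without fresh replicate 1 or 3 or control replicate 1 or 2 (0.0864 to 0.274). Without the block the 6 beyond rnf227 had an adjusted p of 0.164 to 0.301. nup155 and crata also missed the threshold with DESeq2 size factors (0.0521 and 0.0529). None of the 7 passed with limma voom (adjusted p 0.0693 to 0.304).

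Of the 3 genes that rose under a LOC name, with no role given here, LOC100486918 went from 31.5, 18.5 and 32.0 CPM to 80.0, 38.7 and 62.2 CPM (log2 fold change 1.11 ± 0.174, adjusted p = 6.58e-05). LOC100493779 had 0 counts in the fresh libraries and 41 in culture, at least 8.95-fold higher against 3 counts over the fresh group (adjusted p = 0.00954). LOC100498389 had 3 counts against 67, a ratio of 14.6 (95% interval 4.80 to 72.7, adjusted p = 0.0256), with none in cultured replicate 3. LOC100486918 passed with each library left out, LOC100493779 not without fresh replicate 1 (0.162), and LOC100498389 not without fresh replicate 1 (0.318) or control replicate 1 (0.0905) or 2 (0.188). The 3 had adjusted p between 0.606 and 0.647 without the block. At 1329340 counts per library LOC100493779 and LOC100498389 did not pass (0.0679 and 0.0996).

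**Figure D2:**
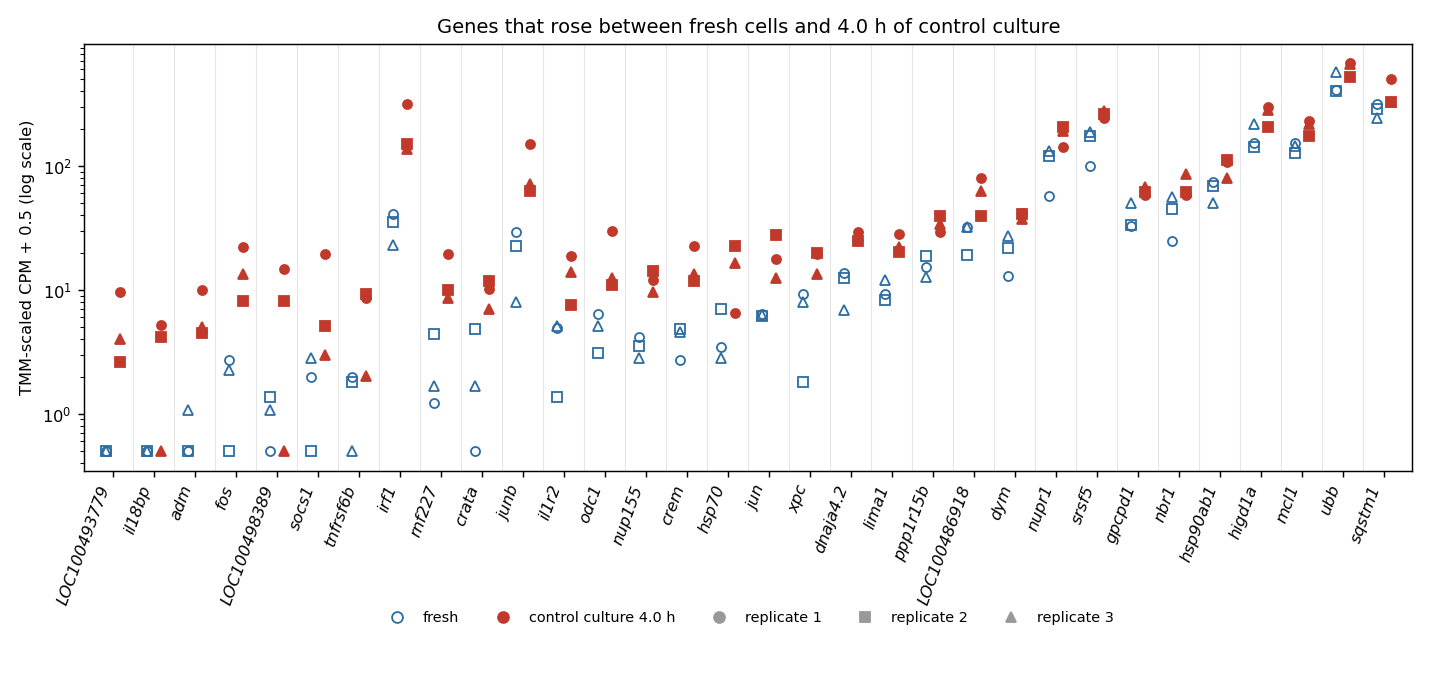
TMM-scaled CPM plus 0.5 (vertical axis, log scale) of the 32 genes that rose, ordered by fold change (horizontal axis), 1 symbol for each library. Open blue symbols are fresh cells, filled red symbols control culture at 4.0 h, and the shape gives the replicate number. The largest changes sit at low levels, as for adm from 0 to 0.581 CPM in fresh cells, while ubb and sqstm1 moved little, at means of 463 and 283 CPM in fresh cells and 617 and 384 CPM in culture.

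Among the genes that fell, itgb3 stood out. It encodes integrin beta 3, the partner of integrin alpha IIb on platelets, and was read at 14.7, 17.2 and 30.8 CPM in fresh cells and at 3.36, 1.83 and 2.01 CPM after culture. The groups lay far apart, the level after culture was 8.37-fold lower (log2 fold change -3.07 ± 0.532, adjusted p = 3.43e-04), and the call held in each of the 17 alternatives, without the block included (0.0245). fermt3, which encodes kindlin-3, an activator of integrins in blood cells, fell from 12.5, 14.6 and 16.3 CPM to 6.39, 1.52 and 3.51 CPM (-2.14 ± 0.533, adjusted p = 0.0355). Its call was lost without the block (0.290) and without each library except fresh replicate 1 (0.0843 to 0.226).

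Both genes belong to the thrombocyte markers, of which 10 of 16 were tested, 2 fell, none rose and 9 lay lower (median -0.70 beside 0.02 over all genes). f13a1, the coagulation factor XIII A chain gene, lay at 12.3 ± 9.44 and 2.95 ± 2.90 CPM (SD, n = 3, adjusted p = 0.0809), itga2b.2 at 9.17 ± 5.18 and 3.80 ± 1.07 CPM (0.422), and thbs1 at 11 ± 7.63 and 6.71 ± 3.22 CPM (0.593). The most abundant member, the beta-tubulin gene tubb1, lay at 351 ± 48.1 and 381 ± 10.3 CPM (0.659). Summed over the 16 markers, the level was 416 to 528 CPM in fresh cells and 436 to 462 CPM after culture. Without tubb1, a sum chosen after the levels were seen, it was 103, 111 and 181 CPM before and 85.0, 54.2 and 70.7 CPM after culture, with no overlap. That smaller sum still holds the called genes itgb3 and fermt3. No thrombocyte marker was at 0 in all 6 libraries at once. In whole blood, fewer cells of a type and less RNA per cell cannot be told apart.

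No leukocyte marker that was tested was called. Of the granulocyte and monocyte markers 17 of 24 were tested and none was called. Their log2 fold changes ran from -1.555 to 1.46, with 13 lower and 4 higher (median -0.36). The sums of this list were 365 to 616 CPM in fresh cells and 288 to 411 CPM after culture. lyz and mmp8 were at 0 in all 6 libraries. cybb, a subunit gene of the phagocyte oxidase, lay at 18.3 ± 5.35 and 5.78 ± 2.39 CPM (SD, n = 3, adjusted p = 0.156) and alox5ap at 138 ± 17.4 and 121 ± 14.1 CPM (0.652). The T and NK cell markers (4 of 17 tested) summed to 43.1 to 51.4 and 37.1 to 39.7 CPM with cd8b at 0. Each cultured T and NK sum lay below each fresh one, from 70 to 124 counts a library. Among the sums of all 35 lists, those for hypoxia response, apoptosis, p53 targets and ATF4 response did not overlap either. These lay higher after culture, and the sums of the remaining lists overlapped. The B cell markers (2 of 10 tested) summed to 85.7 to 116 and 76.5 to 107 CPM with cd79b and pou2af1 at 0. No tested T, NK or B cell marker was called. Whether frog red cells express some of these genes is not known here, and the part of other cells in the changes of single genes was not tested.

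The actin genes tmsb4x, dstn and actg1 fell. tmsb4x, which encodes thymosin beta 4, the main sequestering protein of actin monomers, was read at 307, 170 and 255 CPM in fresh cells and at 152, 76.2 and 97.2 CPM after culture. Each cultured library was below each fresh one, the level was 2.27-fold lower, and the adjusted p was the lowest of all genes (log2 fold change -1.18 ± 0.125, adjusted p = 4.92e-09, and 0.348 without the block). dstn, which encodes the actin-severing protein destrin, went from 68.2, 24.1 and 22.1 CPM to 10.4, 12.5 and 4.51 CPM (-1.92 ± 0.325, adjusted p = 2.59e-04, and 0.164 without the block). Both passed with each library left out. actg1, a cytoplasmic actin gene, had 1419, 1033 and 1186 CPM and then 1193, 909 and 852 CPM, which overlap (-0.31 ± 0.077, adjusted p = 0.0355). The actg1 call was lost without the block (0.786), without a filter on low counts (0.179) and without each library except fresh replicate 1 (0.0712 to 0.272), and similar actin genes may share its reads.

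Of the actin cytoskeleton list, which does not hold dstn, 23 of 33 genes were tested, 1 rose (lima1), 2 fell (actg1 and tmsb4x) and 17 lay lower (median -0.14). gsn, the gelsolin gene, lay at 12 ± 7.22 and 3.08 ± 1.59 CPM (SD, n = 3, adjusted p = 0.123), the profilin gene pfn1 at 144 ± 8.59 and 130 ± 45.7 CPM (0.825), and the cofilin gene cfl1 at 157 ± 27.0 and 144 ± 11.4 CPM (0.829). The sum of the 16 thrombocyte markers and that of the granulocyte and monocyte markers overlapped between the groups. The small sum of the T and NK cell markers did not overlap, as was so for the other list sums named above. Nor did the thrombocyte sum without tubb1, which was chosen after the levels were seen and holds the called genes itgb3 and fermt3. The part of any of these cells in the falls was not tested.

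Single genes of varied function made up the other named falls. kcnk2, a potassium channel gene of the K2P family, went from 337, 219 and 249 CPM to 174, 175 and 187 CPM, and the 3 cultured libraries were nearly equal (log2 fold change -0.56 ± 0.129, adjusted p = 0.0158). mmp7, the matrix-degrading enzyme matrilysin, went from 252, 204 and 171 CPM to 157, 107 and 102 CPM (-0.79 ± 0.127, adjusted p = 9.15e-05). ctgfl went from 42.5, 28.9 and 50.0 CPM to 16.5, 3.96 and 18.0 CPM (-1.87 ± 0.323, adjusted p = 3.43e-04). None of these 3 overlapped between the groups, which the rule for naming the largest falls required. ecm1, extracellular matrix protein 1, went from 38.9, 10.8 and 47.6 CPM to 16.5, 10.1 and 8.52 CPM, with overlap (-1.31 ± 0.325, adjusted p = 0.0355). shc3, an adaptor gene of receptor tyrosine kinases, fell from 175, 147 and 157 CPM to 100, 92.6 and 137 CPM (-0.55 ± 0.137, adjusted p = 0.0355), and stxbp3, a vesicle fusion gene, from 24.0 ± 8.66 to 8 ± 4.52 CPM (SD, n = 3, adjusted p = 0.0412).

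mmp7 and ctgfl passed with each library left out. kcnk2 did not pass without replicate 1 of fresh cells (0.168) or control (0.274), ecm1 not without replicate 1 or 3 of either group (0.100 to 0.292), shc3 not without replicate 1 or 2 of either group (0.0918 to 0.274), and stxbp3 only without fresh replicate 3 or control replicate 1 (otherwise 0.144 to 0.258). Without the block the adjusted p of these 6 genes lay between 0.251 and 0.580, and shc3 did not pass without a filter on low counts (0.117).

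The 8 genes that fell under a LOC name included LOC100492529, read at 25.7, 22.8 and 78.4 CPM in fresh cells and at 5.04, 3.05 and 8.02 CPM after culture. It was 7.61-fold lower (log2 fold change -2.93 ± 0.394, adjusted p = 2.59e-06) and passed in all 17 alternatives. LOC100145554 fell from 635 ± 93.5 to 431 ± 38.7 CPM (SD, n = 3, adjusted p = 0.00154), LOC116406873 from 354 ± 27.7 to 243 ± 45.6 CPM (0.00485), LOC116408003 from 130 ± 25.9 to 80.8 ± 11.3 CPM (0.00978) and LOC105947222 from 114 ± 49.3 to 61.2 ± 19.96 CPM (0.0316). LOC105945141, LOC100492496 and LOC100488000 fell from means of 23.9, 21.2 and 8.78 CPM to 5.36, 3.69 and 0.641 CPM (adjusted p = 0.0143, 0.00553 and 0.0406). Of the 7 beyond LOC100492529 none passed without the block (0.198 to 0.741), and each lost its call without at least 1 library. LOC100145554 lost it only without control replicate 1 (0.130), LOC105947222 without any one (0.0657 to 0.272) and LOC100488000 without any but fresh replicate 1 (0.0774 to 0.251). LOC116406873 lost it without fresh replicate 2 or control replicate 1 or 2 (0.0724 to 0.111), LOC116408003 without replicate 1 or 2 of either group (0.0833 to 0.148), LOC105945141 without replicate 2 or 3 of either group (0.0918 to 0.205), and LOC100492496 without fresh replicate 1 or control replicate 1 or 2 (0.0589 to 0.0944).

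**Figure D3:**
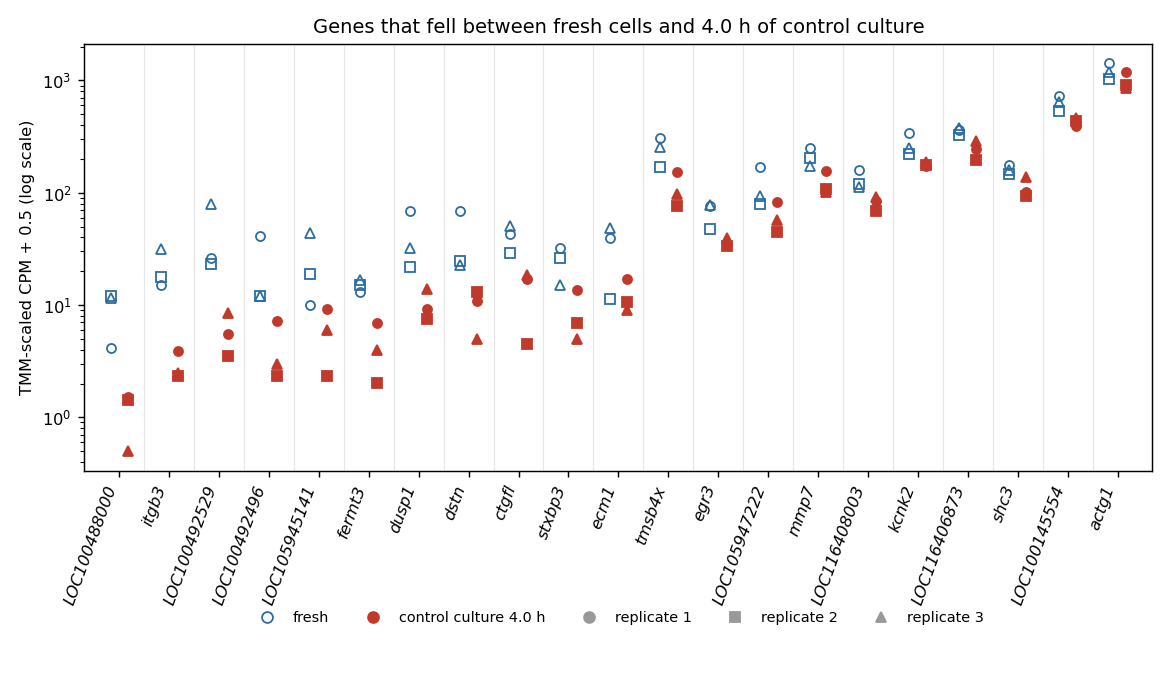
TMM-scaled CPM plus 0.5 (vertical axis, log scale) of the 21 genes that fell, ordered by fold change (horizontal axis), 1 symbol for each library. Open blue symbols are fresh cells, filled red symbols control culture at 4.0 h, and the shape gives the replicate number. itgb3 and LOC100492529 show wide gaps between the groups, and actg1 a small shift with overlap (852 to 1193 against 1033 to 1419 CPM).

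The genes that make up the red cell programme showed no call. Of 12 globin genes 10 were tested and none changed (median -0.01), and hba1 lay at 230524 ± 4849 CPM in fresh cells and 229467 ± 13992 CPM after culture (SD, n = 3, log2 fold change -0.01 ± 0.040, adjusted p = 0.956). hbg1 lay at 168313 ± 4520 and 166385 ± 6552 CPM (-0.02 ± 0.040, adjusted p = 0.919). No gene changed among 15 of heme synthesis, 13 tested erythroid transcription factors and 17 tested red cell membrane genes, with medians of -0.02, 0.04 and 0.12. Higher after culture were 6 of these 15, 9 of the 13 and 15 of the 17, and 3 of the 10 globin genes, beside 51.3% of all genes tested. alas2, which encodes the enzyme that starts heme production in erythroid cells, lay at 3900 ± 434 and 4124 ± 508 CPM (adjusted p = 0.633), gata1, a master regulator of red cells, at 144 ± 32.5 and 146 ± 48.2 CPM (0.987), and slc4a1, the anion exchanger of the red cell membrane, at 347 ± 86.9 and 358 ± 46.2 CPM (0.898). Iron handling genes had no call among 14 tested, with 11 higher (median 0.25), tfrc, the transferrin receptor gene, included (5.06 ± 4.51 and 7.23 ± 0.334 CPM, adjusted p = 0.706).

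The large lists of core machinery had medians close to that of all genes. None of 79 tested cytosolic ribosomal protein genes changed, with log2 fold changes of -0.18 to 0.10 and a median of -0.03, nor did any of 75 tested respiratory chain genes (-0.62 to 1.15, median -0.03), 44 of ribosome biogenesis (-1.76 to 1.21, median 0.11) or 43 translation factors (-0.28 to 1.29, median 0.04). No call was made among tested genes of the cell cycle (11, median -0.09), p53 targets and growth restraint (18, median 0.41), NF-kB and inflammatory response (16, median 0.04), cholesterol synthesis and uptake (21, median 0.05), the clock (11, median 0.25) or glucocorticoid response (7, median 0.09). The list of oxidative and NRF2 response had 1 call of 28 tested, sqstm1 again, with 14 higher and 14 lower. hmox1, the heme oxygenase gene of that response, lay at 9.02 ± 4.89 and 8.22 ± 2.20 CPM (SD, n = 3, adjusted p = 0.908). sesn1, a stress gene under p53 in mammals, lay at 27.5 ± 16.7 and 34.1 ± 9.09 CPM (0.813) and txnip, a gene that restrains glucose uptake, at 30.6 ± 1.75 and 30.2 ± 21.0 CPM (0.980). cdknx lay at 68.9 ± 24.8 and 91.1 ± 28 CPM (adjusted p = 0.337), azin2 at 15.6 ± 11.3 and 15.7 ± 1.60 CPM (0.918) and six3 at 8.90 ± 1.35 and 11.9 ± 1.65 CPM (0.825).

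**Figure D4:**
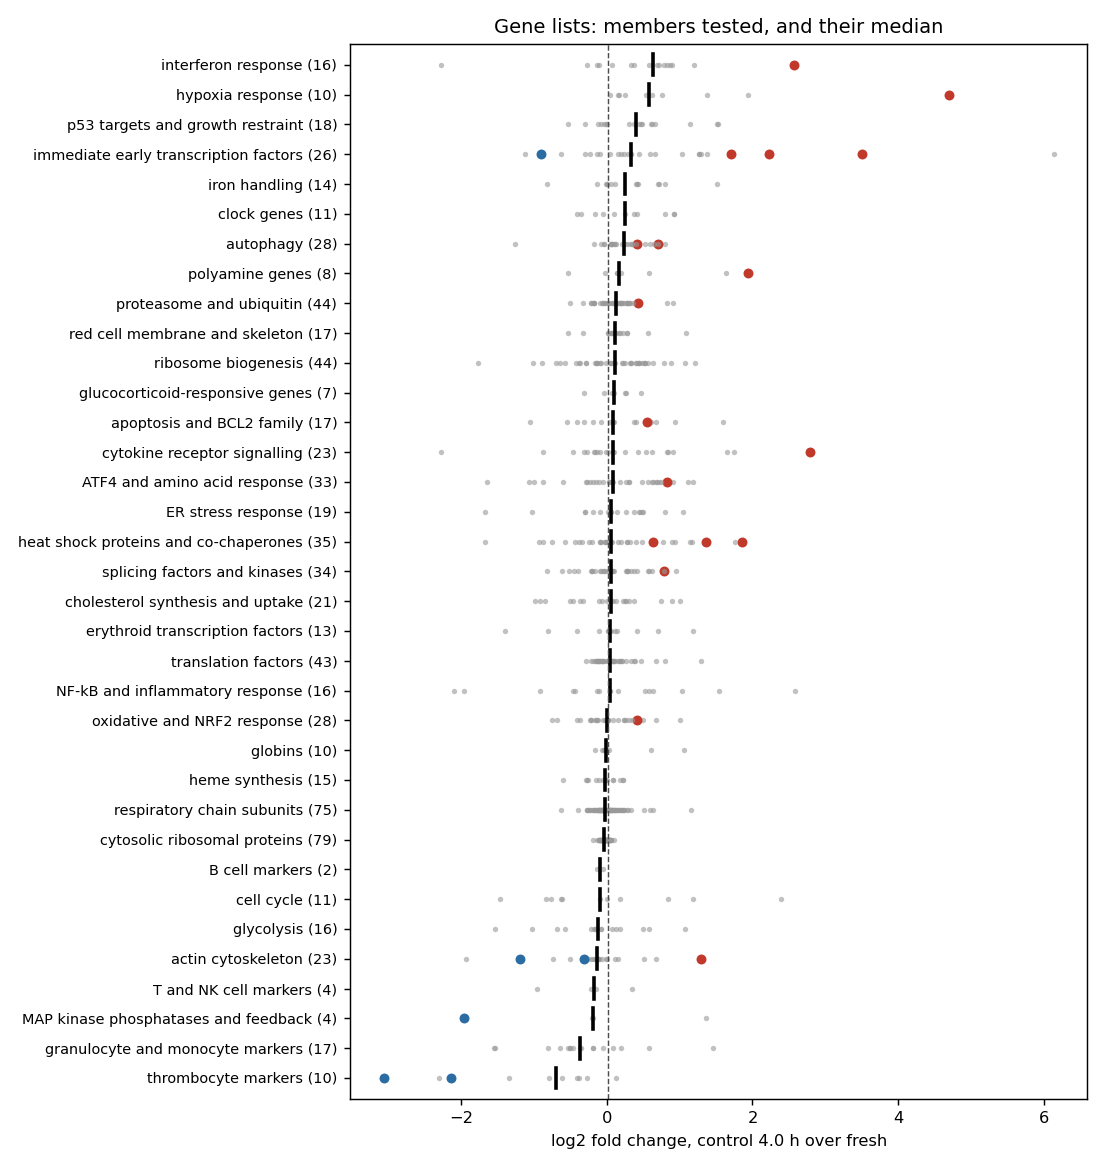
Log2 fold change of control culture at 4.0 h over fresh cells (horizontal axis) for the tested members of 35 gene lists (vertical axis, number tested in brackets). Red points rose, blue points fell, grey points were not called, black bars are list medians and the dashed line is the median of all genes tested (0.02). Thrombocyte markers have the lowest median (-0.70), and ribosomal proteins, globins and heme genes lie around 0.

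The levels in control culture at 1.5 h were set beside these values, though both times share the fresh libraries. Of the 53 genes 1, socs1, differed between 1.5 h and 4.0 h by the same edgeR fit, beside 8 of all genes tested (0.0895%). It was read at 43.4 ± 17 CPM at 1.5 h and 8.63 ± 8.88 CPM at 4.0 h (SD, n = 3, log2 difference -2.35, adjusted p = 3.27e-04). Mean levels of fos were 1.31, 27.8 and 14.1 CPM in fresh cells, at 1.5 h and at 4.0 h, those of junb 19.4, 141 and 94.5 CPM, and those of adm 0.194, 18.1 and 5.96 CPM. For these 3 genes the difference between the times did not pass (adjusted p = 0.614, 0.657 and 0.319). irf1 was read at 238 and 201 CPM, jun at 19.2 and 18.8 CPM and dusp1 at 9.77 and 9.76 CPM at 1.5 h and 4.0 h, close to each other beside fresh means of 32.6, 5.76 and 40.7 CPM (adjusted p between the times 0.991 or higher).

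Some genes followed here were higher at 1.5 h than at 4.0 h without a call at 4.0 h. cish was read at 27.2, 95.3 and 25.6 CPM in fresh cells, at 1.5 h and at 4.0 h, and differed between the times (log2 difference -1.96, adjusted p = 0.00244), as did myc, at 5.45, 29.7 and 12.3 CPM (-1.28, adjusted p = 0.0133). socs3 was read at 8.77, 127 and 25.9 CPM, and its difference between the times missed the threshold (adjusted p = 0.112).

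Culture with EPO for 4.0 h was set beside control culture for the same genes. Of the 53 genes 11 differed between EPO and control at 4.0 h, beside 77 of all genes tested (0.861%), and these share the control libraries used above. Of the 11, 6 had risen in control culture and were higher still with EPO, and 5 had fallen and were lower still. higd1a was read at 170, 263 and 437 CPM in fresh cells, control and EPO culture at 4.0 h, and sqstm1 at 283, 384 and 573 CPM. kcnk2 was read at 268, 179 and 90.5 CPM, and LOC100145554 at 635, 431 and 214 CPM. For fos the means were 14.1 CPM in control and 9.62 CPM with EPO (adjusted p = 0.616), for junb 94.5 and 112 CPM (0.627), for irf1 201 and 316 CPM (0.307), for tmsb4x 108 and 100.2 CPM (0.905) and for itgb3 2.40 and 3.28 CPM (0.918).

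**Figure D5:**
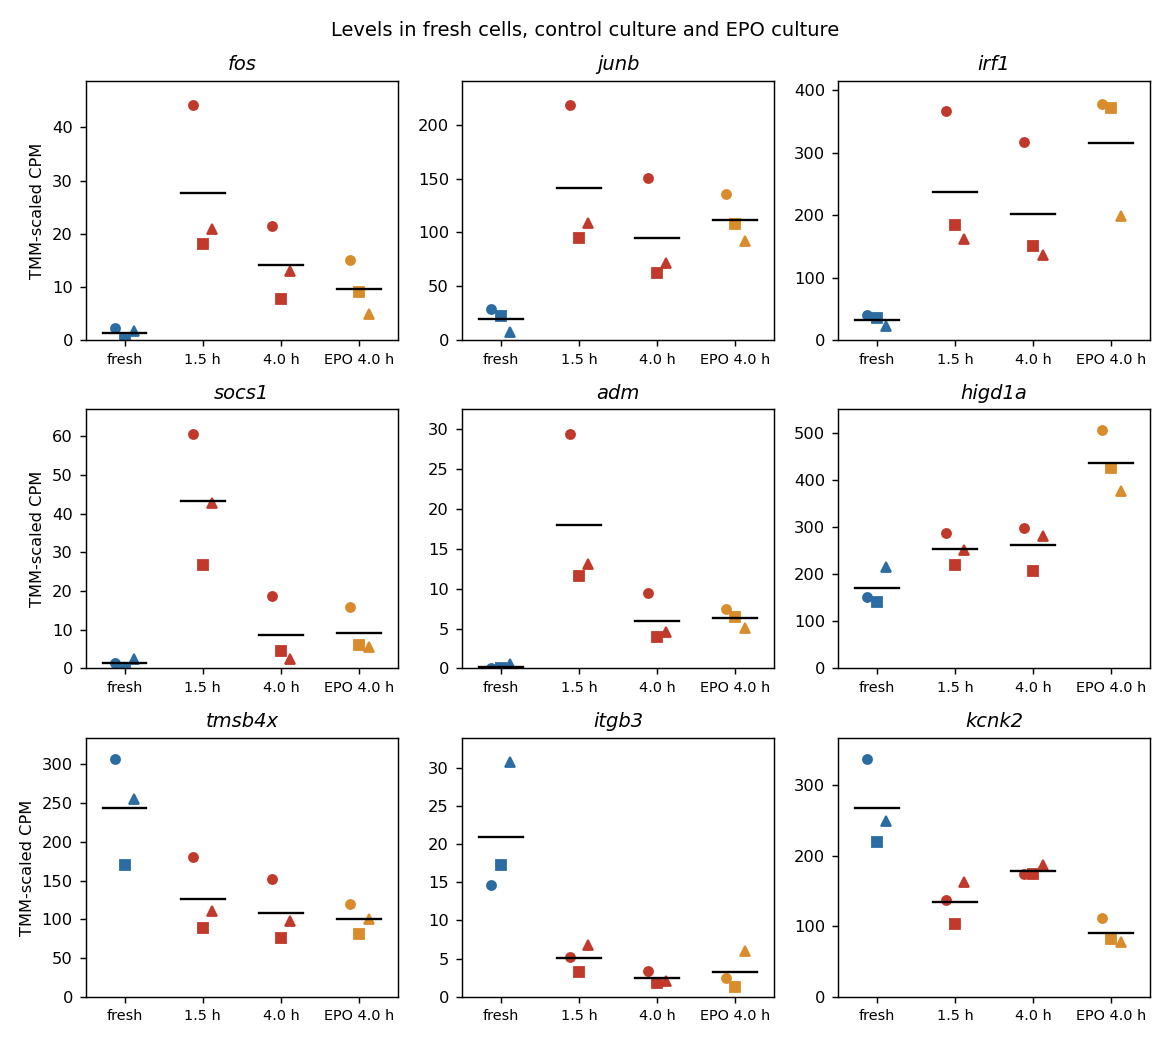
TMM-scaled CPM (vertical axis, linear from 0) of 9 genes in fresh cells, control culture at 1.5 h and 4.0 h and EPO culture at 4.0 h (horizontal axis), 1 symbol for each library with the shape giving the replicate number and the bar the mean of 3. socs1 is highest at 1.5 h (mean 43.4 CPM), irf1 and tmsb4x keep similar levels in the 2 control times, and higd1a and kcnk2 are shifted further with EPO (437 and 90.5 CPM).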

How the data were processed

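The values are raw counts per gene as deposited by the authors, 1 column per sample, for 26531 genes. Per the labels' protocols the RNA went into Lasy-Seq v1.1 libraries. The tools listed in the submitters' processing notes are fastp 0.21.0, BWA 0.7.17-r1188, R 4.3.2 and Salmon. The build, the annotation, the treatment of strand and the part each tool played were not given in the sources used here, so overlapping and antisense genes cannot be told apart. Of the symbols, 26530 matched a RefSeq gene table.

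edgeR 4.0.16 in R 4.3.3 was run on all 15 libraries, which share 1 estimate of the spread (filterByExpr on 5 groups, TMM, robust quasi-likelihood, two-sided tests, coefficient of variation 0.241 with 8 residual degrees of freedom). Of the 8939 genes tested 1275 lack a readable symbol. Adjustment was by Benjamini-Hochberg over all of them with a threshold of 0.05. An SE is the size of the log2 fold change over the square root of F. Where a group held 3 counts or fewer, a ratio of counts or a bound replaces the fitted value. The fit was tested on simulated data that held the fitted replicate effects, so that run does not test the use of the block.

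The replicate number entered as a block. Over 1411 genes (mean log2 CPM above 5), deviations from the group means correlated at 0.280 to 0.627 in 30 pairs of libraries with the same number and at -0.391 to 0.0515 in 60 pairs with different numbers, and 15 of 15 libraries were closest to their own number. Deviations within a group cancel out, so positive values at the same number bring negative ones at different numbers by construction. The pairing by number is read from the data, as the labels hold numbers only. Whether libraries of the same number share an animal or only their handling was not tested.

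Genes named are the 15 largest rises and falls with a mean of at least 10 CPM and no overlap, the 5 largest gains and losses in CPM, up to 5 called genes per list and a set of red cell, cytokine and stress genes. The other called genes are named too, and some list members were chosen after their values were seen. The comparison, the 35 lists and this rule were chosen with earlier results of these data known. After the table was seen the globin list was corrected (hbp1 out, 3 hba-l genes in). Alternatives were no block, the 6 libraries alone, other scaling, filters and minimum change, the DESeq2 1.42.0 Wald test, voom of limma 3.58.1, each library left out and, added after seeing the data, thinning to the smallest total. A planned description of promoter motifs was not run. Some items are not reported here.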

Additional observations from a re-analysis of the deposited data

Results flagged for a closer look

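For 11 of the 53 genes the change differed between EPO and control culture at 4.0 h by edgeR's test of the difference itself (log2 EPO over control ± SE, 3 libraries a group, adjusted over 8939 genes with the replicate number as a block). Those higher with EPO were tnfrsf6b by 1.68 ± 0.368 (adjusted p = 0.00580), LOC100486918 by 1.36 ± 0.145 (1.72e-09), higd1a by 0.75 ± 0.110 (1.61e-05), sqstm1 by 0.58 ± 0.088 (2.04e-05), hsp90ab1 by 0.57 ± 0.130 (0.00897) and srsf5 by 0.45 ± 0.113 (0.0269). Those lower with EPO were LOC116406873 at -1.09 ± 0.117 (adjusted p = 1.72e-09), LOC100145554 at -1.02 ± 0.105 (1.02e-09), kcnk2 at -1.002 ± 0.130 (5.24e-07), LOC116408003 at -0.78 ± 0.152 (0.00115) and shc3 at -0.59 ± 0.136 (0.0114). Without the block 3 of them passed, LOC100145554 and LOC116406873 (adjusted p = 0.00147 each) and kcnk2 (0.0133), and the other 8 had an adjusted p between 0.0563 for higd1a and 0.501 for sqstm1. With 3 libraries a group no outlier was looked for.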

How the results depend on the processing

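The counts of 32 genes that rose and 21 that fell depend on the replicate block and on single libraries. They were 3 and 3 with no replicate block (6 of the 53 calls kept), and 1 and 3 in the 6 libraries alone with no block. In the 6 libraries with the block 15 rose (28 of 46 tested calls kept). With no filter on low counts 50 rose, with a mean of at least 10 CPM 19 rose, with limma voom 11, and with every library thinned to the smallest total, an alternative chosen after seeing the data, 16. The voom fit kept 29 of the 53 calls. Beside genes named above, it lost nbr1, fermt3, stxbp3, LOC100493779, LOC100498389 and LOC100488000. With a 2-fold minimum change 3 rose and 2 fell, and with the DESeq2 Wald test 32 fell. Leaving out each library gave 12 to 44 that rose and 9 to 18 that fell. The other counts were within 1.5 times. All 53 genes kept their sign in every alternative that tested them, which is not separate support, as the same libraries were used. Depth limits the genes near 0 in fresh cells.

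Signs were followed only for the called genes and for the set of red cell, cytokine and stress genes named in every case. Among the genes of that set without a call the sign turned in 11 under at least 1 alternative. With no replicate block azin2 was -0.017 and txnip 0.014 (log2), and in the 6 libraries alone without it azin2 was -0.013, hba1 0.00013 and txnip 0.011, while cish was 0.045 with it. gata1 was -0.0078 with DESeq2 size factors, -0.0071 with no globin genes, -0.020 at 10 CPM, -0.0050 with the Wald test and -0.081 thinned, where hmox1 was 0.23. With no filter hba1 was 0.031 and hbg1 0.022. With voom azin2 was -0.16, hba1 0.037, hbg1 0.014 and txnip 0.042. With single libraries left out the ranges were -0.40 to 0.41 for txnip, -1.16 to 0.98 for egr1, -0.16 to 1.16 for sesn1, -0.16 to 0.31 for epor, -0.63 to 0.51 for hmox1, -0.19 to 0.64 for azin2, -0.032 to 0.22 for slc4a1, -0.14 to 0.19 for gata1, -0.051 to 0.063 for hba1, -0.061 to 0.045 for hbg1 and -0.33 to 0.53 for cish. The causes were not tested.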

Other observations

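fosl1, which encodes another Fos-related AP-1 subunit, had no count in the fresh libraries and lay at 2.43 ± 2.19 CPM after culture (SD, n = 3, edgeR adjusted p = 0.167), a level near that of 3 counts in a library.

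The autophagy kinase gene ulk2 differed more between replicate numbers than between the groups. It was read at 31.5, 71.5 and 222 CPM in fresh replicates 1, 2 and 3 and at 25.5, 79.8 and 221 CPM in cultured replicates 1, 2 and 3 (log2 fold change -0.03, edgeR adjusted p = 0.971), and was picked after its values were seen.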
